A study of Mus musculus with 3 samples.

Results

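Transglutaminases are calcium-dependent enzymes that join the side chain of a glutamine in one protein to that of a lysine in another, and so tie proteins together by bonds that ordinary proteases do not cut. Each enzyme of the family has its own setting. Tgm2 encodes the widely expressed tissue enzyme, which acts in the cytosol, at the cell surface and in the matrix, Tgm1, Tgm3 and Tgm5 encode enzymes best known from the cornified envelope of the epidermis and hair follicle, and F13a1 encodes the catalytic subunit of the clotting factor that cross-links fibrin. Retinoic acid, which cells make from vitamin A, acts through nuclear receptors that bind DNA at pairs of a short half-site, and Tgm2 is a long-known retinoic acid induced gene of myeloid cells in culture.

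The 5 genes described here, Tgm1, Tgm2, Tgm3, Tgm5 and F13a1, were taken by symbol from 19938 genes measured on Affymetrix Mouse Gene 1.0 ST arrays. Each had 1 probe set that carried its symbol alone. The family has 4 further genes on the array, Tgm4, Tgm6, Tgm7 and Epb42, which are given for comparison. The choice was made with the members' levels across the media known, so the values below are a description with no test.

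Kidneys of C57BL/6 mouse embryos at embryonic day 11.5 were kept for 48 h on a porous Transwell filter in 1 of 3 media. The medium was serum-free DMEM with retinoic acid (retinoic acid), serum-free DMEM (serum-free), or DMEM containing 10% fetal bovine serum (serum). No genetic change is given in the labels, the retinoic acid dose and the number of kidneys behind each RNA are likewise not given, and RNA of each medium went to 1 array. With 1 array per medium no difference has an error or a p-value, and the number of arrays limits the precision.

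Values are log2 intensities unless called intensities. Calls were made by size alone: the values had to differ at least 2-fold, and the larger had to reach 7.12, the median of all gene values, called the floor. Of 10 markers of the embryonic kidney, 10 reached the floor on at least 1 array. The embryos' sex is not given, and Xist, the RNA that silences an X chromosome in female cells, stood at 9.79 with retinoic acid, 11.48 in serum-free medium and 10.84 in serum, so that sex and medium cannot be told apart on these arrays. RNA of whole explants was measured, so fewer cells of a type and less RNA per cell cannot be told apart either.

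Tgm5 and Tgm2 were both lowest in serum-free medium and highest with retinoic acid, and the other 3 members lay under the floor on every array. Tgm5, whose human counterpart is mutated in a peeling skin disorder, had an intensity of 302 with retinoic acid, 55.0 in serum-free medium and 202 in serum. On the log2 scale it stood at 8.24 with retinoic acid, 5.78 in serum-free medium, which lies under the floor, and 7.65 in serum. Tgm2 had an intensity of 532 with retinoic acid, 245 in serum-free medium and 329 in serum. Its log2 values, 9.06 with retinoic acid, 7.93 in serum-free medium and 8.36 in serum, lie above the floor on all 3 arrays, and the serum value is nearer to the serum-free one.

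**Figure D1:**
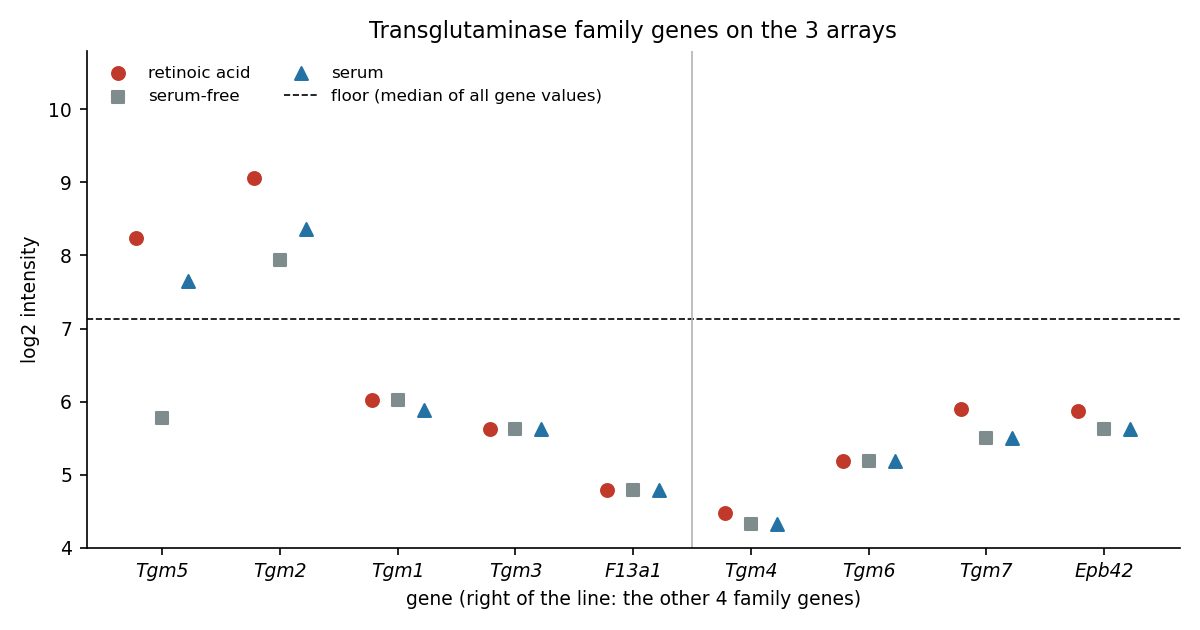
Log2 intensity (vertical axis) of the 9 transglutaminase family genes (horizontal axis) on the retinoic acid array (red circle), the serum-free array (grey square) and the serum array (blue triangle), 1 array each. Tgm2 lies above the dashed floor of 7.12 on 3 arrays and Tgm5 on 2, while the other 7 genes lie under it throughout.

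Tgm1, which encodes the membrane-bound enzyme of keratinocytes, stood at 6.02 with retinoic acid, 6.02 in serum-free medium and 5.89 in serum. Tgm3, whose product acts in hair follicles and the upper epidermis, stood at 5.62 on all 3 arrays, and F13a1 at 4.79 on all 3 arrays. Such exact equality is common in these values, because the summary of probes used by RMA often returns the same number for several arrays. Among 9697 genes that stayed under the floor on every array, 56.6% had the same value on all 3. Among 10241 genes that reached the floor on at least 1 array, 21.2% did. An exact difference of 0 is therefore no measure of equal expression, and for Tgm1, Tgm3 and F13a1 the arrays show only that no signal reached the floor.

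Serum-free medium with and without retinoic acid was compared on the first pair of arrays. Tgm5 was 5.48-fold higher with retinoic acid, a log2 difference of 2.45 that ranked 9 among 10111 genes at or above the floor. Tgm2 was 2.18-fold higher, a difference of 1.12 that ranked 81, close to the 2-fold limit. Thus 2 of the 5 members were higher and 0 were lower, beside 1.05% of all genes higher and 0.613% lower. Both members that reached the floor are among the higher ones, but since the members were chosen on this contrast nothing is read from that count. The differences of Tgm1, Tgm3 and F13a1 were 0.00.

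Serum-free medium and serum were compared on the second pair, which shares the serum-free array with the first. Tgm5 was 3.66-fold lower in serum-free medium than in serum, a difference of -1.87 that ranked 19 from the bottom among 10156 genes. It was the only member past 2-fold, beside 0.876% of all genes higher and 0.699% lower. This count depends on the floor, since the serum value of Tgm5 (7.65) lies under the 60th percentile of gene values (7.89), and with that percentile as the floor 0 members were counted. Tgm2 differed by -0.43, or 1.34-fold, and Tgm1 by 0.13.

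In the third pair, retinoic acid without serum against serum, both genes were higher by less than 2-fold. Tgm2 was higher by 0.69 and ranked 199 among 10169 genes, and Tgm5 was higher by 0.58 and ranked 253. Here 0 of the 5 members passed 2-fold, beside 1.04% of all genes higher and 0.816% lower. The order of the 3 media was thus the same in both genes, but the steps were not. The step between serum-free medium and serum was -1.87 in Tgm5 and -0.43 in Tgm2. With 1 array each, whether these steps differ beyond the error could not be tested.

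**Figure D2:**
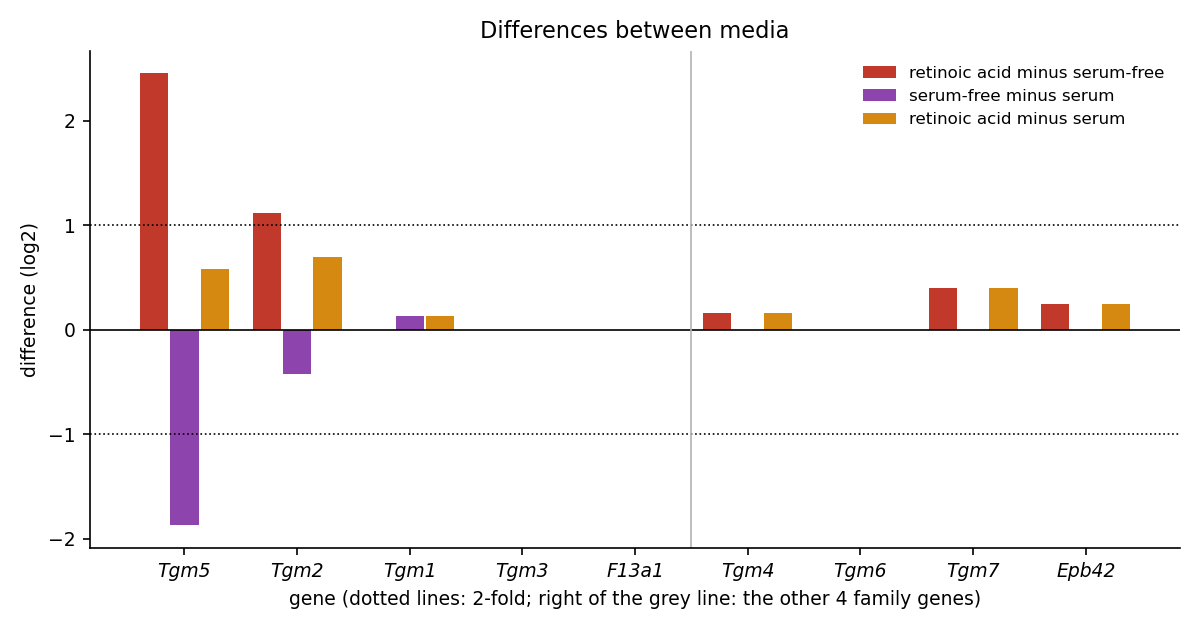
Log2 difference (vertical axis) of each of the 9 family genes (horizontal axis) for retinoic acid minus serum-free (red), serum-free minus serum (purple) and retinoic acid minus serum (orange), 1 array per medium and no error bars. The red bars of Tgm5 (2.45) and Tgm2 (1.12) and the purple bar of Tgm5 (-1.87) pass the dotted 2-fold lines.

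The other 4 family genes gave no signal at the floor on any array. Tgm7, a little-studied enzyme of the family, stood at 5.90 with retinoic acid, 5.50 in serum-free medium and 5.50 in serum. Epb42, a family member without enzyme activity that supports the red cell membrane, stood at 5.88 with retinoic acid, 5.63 in serum-free medium and 5.63 in serum. Tgm4, which encodes the prostate enzyme that clots semen in rodents, stood at 4.48 with retinoic acid, 4.33 in serum-free medium and 4.33 in serum. Tgm6, linked to a human ataxia, stood at 5.19 on all 3 arrays. The median of the 4 differences was 0.20 for retinoic acid against serum-free and 0.00 for serum-free against serum, where the median of all genes was 0.00 in both. Of 9 erythroid markers measured, 4 reached the floor, among them the embryonic globin gene Hbb-y at 12.39 with retinoic acid, 12.47 in serum-free medium and 12.20 in serum.

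Tgm5 lies on mouse chromosome 2 between Epb42 and Tgm7, in the gene order of the RefSeq annotation of GRCm38.p6, with 1 unmeasured gene between Tgm5 and Tgm7. With retinoic acid against serum-free medium Epb42 differed by 0.25 and Tgm7 by 0.40, both under the floor, beside 2.45 in Tgm5. Beyond this cluster Ccndbp1, the gene next to Epb42, differed by 0.88 (9.81 with retinoic acid and 8.93 without). Lcmt2, the measured gene next to Tgm7, differed by 0.00. These last 2 genes were added after their values were seen. The measured neighbours of Tgm2, also on chromosome 2, are Rprd1b and D630003M21Rik, with 2 and 1 unmeasured genes between. Both differed by 0.00 in the same comparison, but D630003M21Rik lay under the floor, at 5.74.

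Of the other members, Tgm3 lies on chromosome 2 between the measured genes Stk35, at -0.05 for retinoic acid against serum-free, and AU015228, at 0.00 but under the floor. Tgm1 on chromosome 14 lies between Tinf2, at -0.05, and Rabggta, at -0.24. F13a1 on chromosome 13 lies between Nrn1, which was flat at 5.72 on all 3 arrays, and Ly86, a gene of myeloid cells. Ly86 stood at 8.98 with retinoic acid, 9.17 in serum-free medium and 7.82 in serum. It was higher in serum-free medium than in serum by 1.35, and 5 unmeasured genes lie between it and F13a1.

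Start regions were compared because retinoic acid receptors bind at pairs of half-sites. Windows of 300 bases, 250 before and 50 after an annotated start, were taken from RefSeq (GRCm38.p6) and matched 8 of the 9 family genes by symbol, all but Tgm2, in 11 windows. The half-sites searched, on both strands, were AGGTCA, its variant GGGTCA, the form AGTTCA and its variant GGTTCA. The 3 windows shown are those of Tgm5, which was higher with retinoic acid, of Tgm3, a member under the floor whose window held the most matches of any single window, and of Tgm7, the neighbour of Tgm5. Each reads 5′ to 3′ along the gene, and capitals mark a half-site, which is written here as its reverse complement in every match.
Tgm5 (chr2:121085792-121086091, minus strand): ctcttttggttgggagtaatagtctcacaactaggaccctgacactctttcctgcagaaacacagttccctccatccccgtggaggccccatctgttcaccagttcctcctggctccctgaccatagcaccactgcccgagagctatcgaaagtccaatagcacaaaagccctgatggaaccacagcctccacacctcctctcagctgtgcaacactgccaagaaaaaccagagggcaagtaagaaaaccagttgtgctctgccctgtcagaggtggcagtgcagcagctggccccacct
Tgm3 (chr2:130012090-130012389, plus strand): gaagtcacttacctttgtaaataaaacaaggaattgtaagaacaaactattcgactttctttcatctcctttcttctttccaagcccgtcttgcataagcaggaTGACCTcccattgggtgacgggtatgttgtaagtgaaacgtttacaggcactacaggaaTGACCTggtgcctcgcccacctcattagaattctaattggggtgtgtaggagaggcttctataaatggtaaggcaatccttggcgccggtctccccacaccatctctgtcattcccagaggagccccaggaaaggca
Tgm7 (chr2:121116347-121116646, minus strand): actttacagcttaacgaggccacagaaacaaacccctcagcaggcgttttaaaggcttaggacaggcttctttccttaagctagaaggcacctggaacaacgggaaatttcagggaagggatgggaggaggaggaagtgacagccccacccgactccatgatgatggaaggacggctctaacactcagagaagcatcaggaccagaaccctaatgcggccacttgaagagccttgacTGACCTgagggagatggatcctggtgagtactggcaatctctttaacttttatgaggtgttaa

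The Tgm5 window held 0 half-sites. That of Tgm3 held 2 copies of AGGTCA, whose first bases lie at -146 and -87 from the start, and that of Tgm7 held 1 at -13. In all, 7 of the 11 windows held 8 half-sites with no overlap between matches, beside 43.7% of 32851 windows of all genes with at least 1. AGGTCA alone was in 16.3% of all windows, GGGTCA in 13.7%, AGTTCA in 14.0% and GGTTCA in 10.4%. Direct repeats of any of these half-sites with 1, 2 or 5 bases between them were in 0 of the family's windows, and in 0.222%, 0.268% and 0.0974% of all windows. No match says only that these letters are not in these 300 bases.

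The genes most like Tgm5 over the 3 arrays were found by the Euclidean distance between log2 values centred on each gene's mean, among 10240 other genes that reached the floor on at least 1 array. The nearest was Calb1, which encodes a calcium-binding protein of the ureteric bud and distal nephron, at a distance of 0.26. Calb1 stood at 11.91 with retinoic acid, 9.73 in serum-free medium and 11.67 in serum. Next came Cyp7b1, which encodes an oxysterol hydroxylase, at 0.28, Hapln1, which encodes a link protein of the hyaluronan matrix, at 0.34, Rarb, which encodes a retinoic acid receptor, at 0.37, and Pcp4 at 0.42. Their differences for retinoic acid against serum-free ran from 1.87 in Pcp4 to 2.95 in Rarb. For serum-free against serum they ran from -1.98 in Rarb to -1.41 in Hapln1. That both ranges lie near the values of Tgm5 follows from picking the genes by this distance. Tgm2 ranked 69 on this scale, at a distance of 1.14, and at the same distance Tgm5 ranked 9778 of 10240 among the genes like Tgm2. This distance grows with the size of the differences, which for retinoic acid against serum-free were 2.45 in Tgm5 and 1.12 in Tgm2. The ranks are therefore no measure of whether the order of the media is alike, and that order was the same in both genes.

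For Tgm2 the nearest genes were Neurl3 at a distance of 0.05, Hivep1 at 0.06, Gata6, which encodes a zinc finger transcription factor, at 0.07, Kdm5d at 0.07 and Zfp804a at 0.08. Their differences for retinoic acid against serum-free lay between 1.05 and 1.19, beside 1.12 in Tgm2. This closeness follows from picking them by distance. Kdm5d is a gene of the Y chromosome, at 8.40 with retinoic acid, 7.21 in serum-free medium and 7.74 in serum. A second Y-linked gene, Eif2s3y, stood at 8.64 with retinoic acid, 7.46 in serum-free medium and 8.38 in serum. Kdm5d was picked by its distance to Tgm2, so its likeness to Tgm2 follows from that choice. Eif2s3y was not picked by that distance. Whether embryo sex had a part in the Tgm2 difference was not tested.

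**Figure D3:**
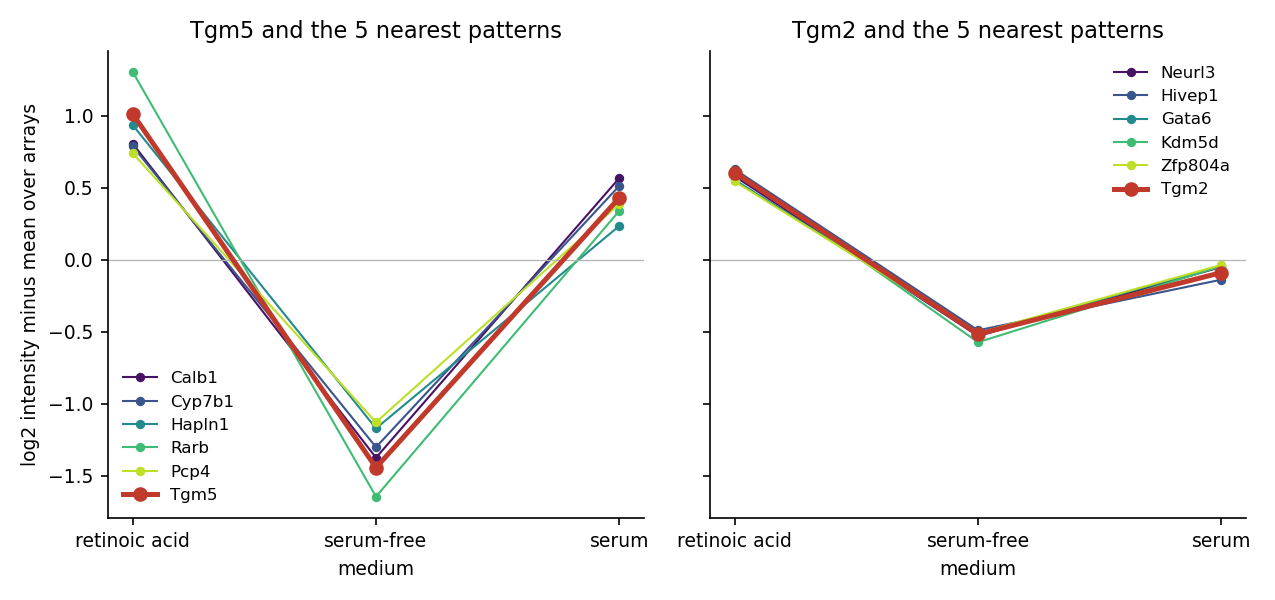
Log2 intensity minus each gene's mean over the 3 arrays (vertical axis) by medium (horizontal axis), for Tgm5 (left, thick red line) and Tgm2 (right, thick red line) with the 5 genes nearest to each, 1 array per medium. The lines join media and show no course in time. The serum-free point is the lowest of each line, and the drop is deeper around Tgm5 than around Tgm2. The likeness of the thin lines to the thick one follows from how the genes were picked.

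Retinoic acid target genes differed in both of the first comparisons. Of 7 measured retinoic acid target genes, 5 were at least 2-fold higher with retinoic acid than in serum-free medium and 0 lower, with a median of 1.56. Of all genes, 1.05% were higher and 0.613% lower in that comparison. Cyp26b1, which encodes an enzyme that breaks down retinoic acid, was higher by 3.65 and Dhrs3, which encodes a retinaldehyde reductase, by 3.32. For serum-free against serum, 3 of the 7 were lower, beside 0.699% of all genes, and the median was -0.80. These were Dhrs3 at -2.10, Rarb at -1.98 and Ret, the receptor gene of ureteric bud branching, at -1.16. Cyp26b1 differed there by -0.03, where Tgm5 differed by -1.87. Both of these Cyp26b1 values lay under the floor, at 6.60 in serum-free medium and 6.63 in serum. Crabp2, whose protein carries retinoic acid in the cell, was at -0.49 for retinoic acid against serum-free.

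Proteins that transglutaminases cross-link in the cornified envelope were mostly under the floor. Of 21 measured genes, 4 reached it on at least 1 array, and 0 differed 2-fold for retinoic acid against serum-free or for serum-free against serum, with medians of 0.00. Involucrin (Ivl) stood at 4.72 on all 3 arrays, and loricrin (Lor) at 6.14 with retinoic acid, 6.33 in serum-free medium and 6.33 in serum. Anxa1, which encodes an annexin of many cell types, was the single gene past 2-fold in any comparison. It stood at 5.90 with retinoic acid and 7.30 in serum, a difference of -1.39.

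Markers of stratified epithelium were mostly under the floor too. Of 11 measured, 2 reached it, Perp and Sfn. The basal keratinocyte genes did not: Krt5 was at most 5.46, with retinoic acid, Krt14 at most 5.98, and Trp63 was at 5.92 on all 3 arrays. Perp, which encodes a membrane protein of epithelial junctions, was higher with retinoic acid than in serum-free medium by 1.08 (7.76 against 6.68). The summed intensity of the 11 was 747 with retinoic acid, 627 in serum-free medium and 600 in serum. Without Perp the sum of the other 10 was 531 with retinoic acid, 524 in serum-free medium and 522 in serum, so the difference in the sum is mostly that of Perp. The part of these markers in the Tgm5 difference was not tested.

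Fibrin clot proteins, the setting of F13a1, gave no signal at the floor. Of 8 measured genes 0 reached it on any array, among them F13b, which encodes the carrier subunit of the same clotting factor, at 3.43 on all 3 arrays. Of 7 megakaryocyte and platelet markers 1 reached it. This was Pf4, which encodes a platelet chemokine, at 7.36 with retinoic acid, 6.28 in serum-free medium and 6.24 in serum.

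Matrix and cell surface partners of Tgm2 mostly reached the floor, and few of them differed 2-fold. Of 8 measured matrix substrates 6 reached the floor, and fibronectin (Fn1), which binds the Tgm2 protein at the cell surface, stood at 11.47 with retinoic acid, 11.47 in serum-free medium and 11.62 in serum. For retinoic acid against serum-free 0 of the 8 differed 2-fold, with a median of 0.00. Against serum, Thbs1, which encodes the matrix protein thrombospondin, was lower with retinoic acid, at a difference of -1.15 (9.32 against 10.46). Of 9 surface partners all reached the floor on at least 1 array and 0 differed 2-fold for retinoic acid against serum-free, with a median of -0.07. Lrp1, which encodes an endocytic receptor that takes up the Tgm2 protein, was higher with retinoic acid than in serum by 1.08 (10.18 against 9.10). Itgb3, the gene of an integrin subunit, lay just under the limit at 0.99, with 7.60 with retinoic acid and 6.61 in each of the other media, and is named after its value was seen.

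**Figure D4:**
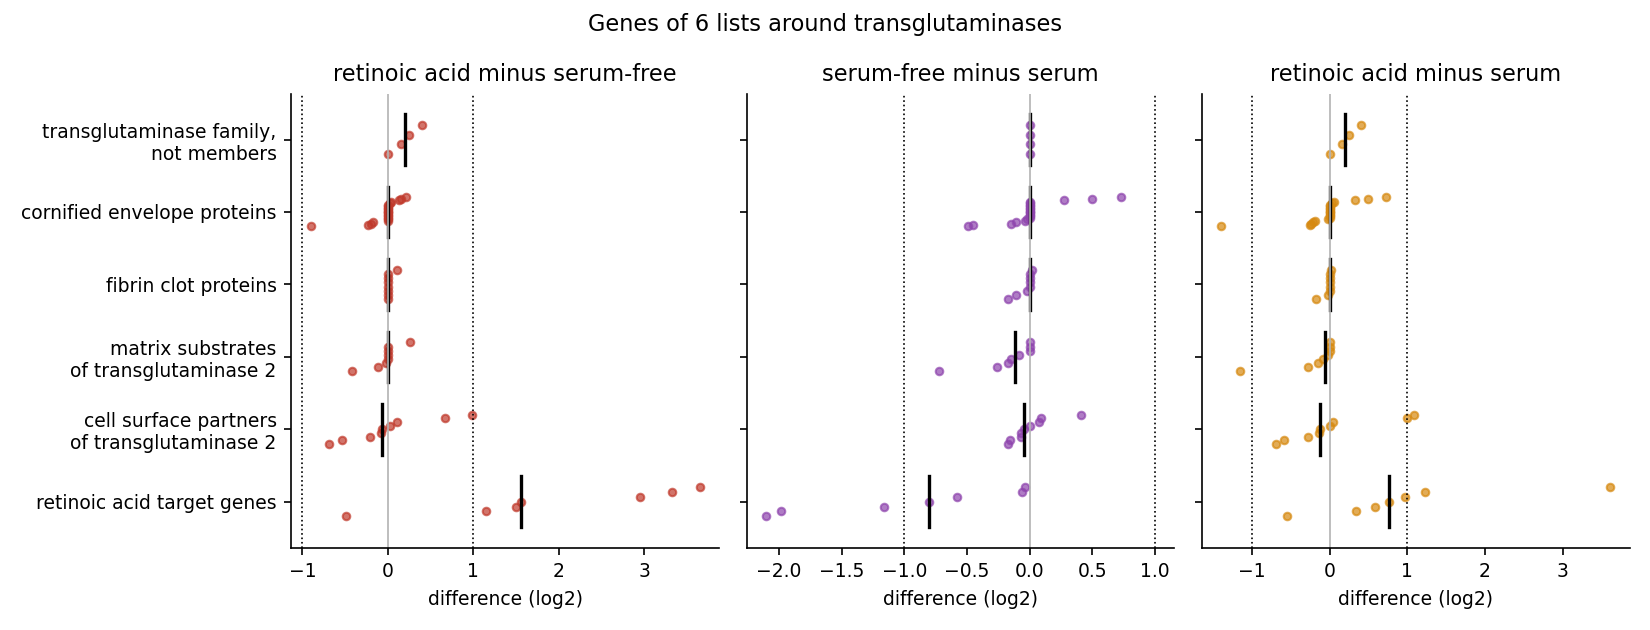
Log2 difference (horizontal axis) of each measured gene (point) in 6 gene lists (rows), for retinoic acid minus serum-free (left), serum-free minus serum (middle) and retinoic acid minus serum (right), with the list median as a black bar and 2-fold as dotted lines. The retinoic acid target genes lie apart, with medians of 1.56, -0.80 and 0.76, and the other lists have medians between -0.13 and 0.20. The floor was reached on at least 1 array by 0 of 4 other family genes, 0 of 8 fibrin clot genes and 4 of 21 cornified envelope genes. The medians of these lists are therefore no measure of equal expression.

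Markers of macrophages and endothelium, cell types that can carry Tgm2, were set beside it. Of 18 macrophage markers, 13 were at least 2-fold higher in serum-free medium than in serum, beside 0.876% of all genes. With retinoic acid 2 were lower than in serum-free medium, namely Cd68 and Mrc1, beside 0.613% of all genes. The summed intensity of the 18 was 9019 with retinoic acid, 12627 in serum-free medium and 4407 in serum, with 4 markers under the floor throughout. Tgm2 was at its lowest (245) on the array where that sum was highest. The summed intensity of 12 endothelial markers was 10064 with retinoic acid, 11735 in serum-free medium and 8546 in serum, again highest where Tgm2 was lowest, but 0 of the 12 differed 2-fold in any of the 3 comparisons. The 8 smooth muscle markers had a sum of 2332 with retinoic acid, 4023 in serum-free medium and 9135 in serum. Acta2 was the highest of them on each array and weighs most in the sum, at 9.72 with retinoic acid, 11.11 in serum-free medium and 12.42 in serum. Des stood at 9.29, 9.33 and 9.29 on the same arrays. Of the 8, 4 were at least 2-fold lower in serum-free medium than in serum and 0 higher, beside 0.699% of all genes lower. Of 10 kidney markers, 2 moved past 2-fold in the same directions as Tgm5, Ret (9.92 with retinoic acid, 8.42 in serum-free medium and 9.58 in serum) and Lhx1, a transcription factor gene of the bud tip and early nephron. Lhx1 stood at 8.07 with retinoic acid, 6.79 in serum-free medium and 8.71 in serum, differences of 1.28 and -1.93. For retinoic acid against serum-free, 4 of the 10 lay above 0 and 5 below, with a median of -0.08. For serum-free against serum, 2 lay above 0 and 8 below, with a median of -0.16. Of all genes, 1.05% were higher in the former comparison and 0.699% lower in the latter. Ret is also 1 of the retinoic acid target genes above. The part of these cell types in the Tgm2 and Tgm5 differences was not tested.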

How the data were processed

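RNA of each medium (250 ng) was labelled and hybridised to 1 array, per the labels' protocols. The table holds 1 linear intensity per probe set and array, made by the authors with Affymetrix Expression Console 1.1 and RMA, per the submitters' processing notes. RMA subtracts background, equalises array distributions and summarises probes by median polish, and the run's settings are not given. Median intensity over all probe sets was 84.7 with retinoic acid, 85.5 in serum-free medium and 81.5 in serum.

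The log2 of the intensities was used with no pseudocount. Of 35556 probe sets, 21789 carried exactly 1 symbol in the platform annotation. The probe set with the highest mean stood for a gene, which gave 19938 genes. Calls were by size, at least 2-fold with the higher value at or above the floor of 7.12. Counts and medians of 6 gene lists and 7 marker lists were computed over the symbols measured. Members and lists were chosen with earlier results of these data known. Named genes were the family, up to 4 genes past 2-fold per list, the 5 nearest patterns and the nearest measured neighbours, and exceptions are marked. Other marker genes were named for their role. Alternatives were 32 added to the intensities, cyclic loess (limma 3.58.1), subtraction of array medians, no floor or a higher one, and the mean of all probe sets. Python 3.11.15, pandas 2.3.3 and R 4.3.3 were used.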

Additional observations from a re-analysis of the deposited data

How the results depend on the processing

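No paired analysis was possible because each medium has 1 array. Array values were taken as unmoved when they shifted by less than the 95th percentile of disagreement between probe sets of one gene (0.28 for retinoic acid against serum-free). With 32 added to the intensities, Tgm5 differed by 1.94 for retinoic acid against serum-free and by -1.42 for serum-free against serum, and Tgm2 by 1.03 for retinoic acid against serum-free, still past 2-fold. With the floor at the 60th percentile (7.89), 0 members were lower for serum-free against serum. Over the retinoic acid target genes at or above the floor, the median was 2.25 for retinoic acid against serum-free and -1.16 for serum-free against serum. Under cyclic loess and subtraction of array medians, the 2 members higher with retinoic acid and the 1 lower without serum were counted as before. Each family gene had 1 probe set, so the mean of all probe sets left their values as they were. It gave 105 in place of 106 genes higher with retinoic acid against serum-free. Signal limits Tgm1, Tgm3, F13a1 and the other 4 family genes, which lie under the floor.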
